A study of Mus musculus with 8 samples.

Results

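Toll-like receptors, their coreceptors and their adaptor were followed in a mouse strain whose Tlr4 is defective. The tissue was the Peyer's patch, a cluster of lymphoid follicles in the small intestine. The 10 genes were the receptors Tlr1, Tlr2, Tlr3, Tlr4, Tlr5, Tlr7 and Tlr9, the lipopolysaccharide coreceptors Ly96 and Cd14, and the adaptor Myd88. Every probe set of the array annotated to exactly 1 of them was taken, which gave 16 of 45101 probe sets and 10 of 18194 named genes. No probe set named one of them together with another gene. The groups were 2 female and 4 male mice given OVA (ovalbumin, a protein of egg white and a common model allergen), and 1 female and 1 male control given saline. All 8 mice were C3H/Hej, so the defective Tlr4 was carried by OVA mice and controls alike, and no mouse with a functional receptor was read. Gavage began at 6 weeks of age and ran for 28 days, with OVA at 40 mg/kg each day. RNA of each mouse was read on 1 single-colour array, and the values are probe set intensities normalized by the authors. Arrays had trimmed mean intensities of 65.1 to 68.2, and their number limits the precision of every value. The labels call the OVA mice allergic, but no measure of allergy comes with the arrays, and the extraction text in the labels names brain cortex rather than gut. Of the B cell markers on the array, 14 of 14 passed the intensity filter of 11.9 described below, against 4 of 15 neuron and glia markers. Among the latter, Snap25 and Gfap did not pass, while Mbp did.

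Toll-like receptors are sensors of microbial molecules that recruit adaptors through an intracellular domain and switch on NF-kappa B, cytokine and interferon genes. Those at the cell surface bind lipopeptides (Tlr2 paired with Tlr1 or Tlr6), lipopolysaccharide (Tlr4, with Ly96, also called MD-2, and Cd14) and flagellin (Tlr5). Those in endosomes bind nucleic acids, double-stranded RNA for Tlr3, single-stranded RNA for Tlr7 and unmethylated DNA for Tlr9. Myd88 carries the signal of all of these receptors except Tlr3, which uses Ticam1, also called TRIF. In C3H/HeJ mice a missense mutation in the intracellular domain of Tlr4 abolishes the response to lipopolysaccharide. Such a change alters the protein, and the arrays read only the amount of transcript.

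Whether a gene was measured was judged against olfactory receptor genes. They were taken as a set to be scarce in gut tissue, which was not tested gene by gene. The 43 probe sets of 38 olfactory receptor genes gave 344 values between 2.31 and 9.67, with a median of 4.28 and a 95th percentile of 6.97. A probe set was called at background when its highest array lay at or below 6.97, and measured when its lowest array lay above it. The second mark was the intensity filter of the statistical test, 11.9, the median over probe sets, which none of the olfactory receptor probe sets passed. For the 4 probe sets of 3 Y-linked genes that lay above this filter on every male array, values on the 3 female arrays ran from 1.97 to 15.3 with a median of 2.97. The highest of these came from a probe set of Uty, so a single probe set can stay bright without its transcript. Of the 16 probe sets, 4 were at background, 3 had arrays on either side of it and 9 were measured on every array. Among these 9, Tlr5 and the Tlr3 probe set 1422781_at stayed below the filter on every array. Their lowest values, 7.54 and 7.66, lay within the range of the olfactory receptors. Intensities of different probe sets depend on their probes and are not compared with each other here.

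The probe sets of Tlr4, the lipopolysaccharide receptor, lay at or near background in every mouse. Its probe set 1418162_at had 4.91 and 5.37 in female OVA mice, 5.54, 4.91, 5.56 and 4.41 in male OVA mice, and 5.07 and 5.86 in the female and the male control. All of these lie among the olfactory receptor values, and OVA mice and controls overlapped. Probe set 1430695_at ran from 2.86 to 4.59 in OVA mice and from 3.52 to 4.61 in controls, and 1442827_at from 4.11 to 6.09 in OVA mice and from 4.93 to 5.48 in controls. The fourth, 1418163_at, had 6.27 to 7.99 in OVA mice and 6.20 to 7.23 in controls. On 6 arrays it exceeded the background mark, and on none did it reach the filter. It held 5 distinct values over the 8 arrays, as several arrays had exactly equal deposited intensities. The 4 probe sets did not vary together, with Pearson correlations over the 8 arrays between -0.92 and 0.61, all from values of the same libraries near background. None of the 4 passed the filter, and in a fit without it their log2 differences of OVA minus control were -0.09 to 0.07 (adjusted p of 0.729 to 0.871). Scarce transcript and weak probes cannot be told apart here. For Tlr7, probe set 1419848_x_at was at background while 1422010_at was measured on every array.

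**Figure D1:**
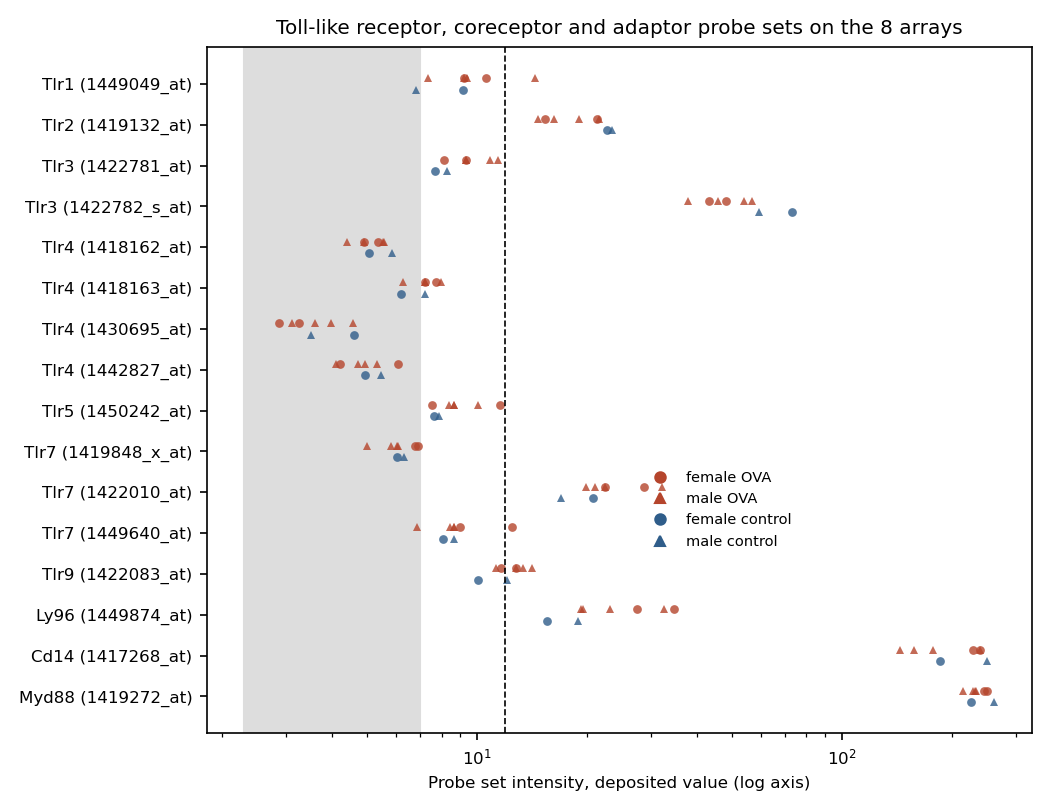
Deposited intensity (log axis) of the 16 probe sets on each of the 8 arrays, with OVA mice in red above controls in blue, females as circles and males as triangles. The grey band runs from the lowest olfactory receptor value, 2.31, to their 95th percentile, 6.97, and the dashed line marks the filter at 11.9. The 4 probe sets of Tlr4 lie in or beside the band, while Cd14 and Myd88 lie above 144 on every array.

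The partners of Tlr4 were measured in all 8 mice. Cd14, a membrane-anchored protein that hands lipopolysaccharide to the Tlr4 complex, had intensities of 229.1 and 239.0 in female OVA mice and 157.9, 144.1, 177.9 and 238.9 in male OVA mice, against 185.2 in the female and 249.7 in the male control. Female OVA mice lay above their control and male OVA mice below theirs. In the fit of both sexes the log2 difference was -0.12 ± 0.22 (SE), with a 95% interval of -0.62 to 0.39 (adjusted p = 0.847). It was 0.33 within females and -0.49 within males, and the OVA effect in males minus that in females, -0.82 ± 0.37 (SE), did not pass (adjusted p = 0.626). Ly96, the secreted protein that binds lipopolysaccharide and joins it to Tlr4, had 27.4 and 34.8 in female OVA mice, 23.2, 19.5, 32.5 and 19.2 in male OVA mice, and 15.6 and 18.9 in the female and the male control. All 6 OVA mice lay above both controls, although the margin was narrow, as the lowest OVA mouse and the male control differed by little. The log2 difference was 0.49 ± 0.20 (SE), or 1.41-fold with a 95% interval of 1.02 to 1.94, and did not pass (adjusted p = 0.425). It was 0.81 within females and 0.23 within males.

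Myd88, the adaptor shared by most of these receptors, was the steadiest of the measured genes in its own level. It had 249.3 and 244.6 in female OVA mice, 214.6, 233.9, 229.0 and 232.1 in male OVA mice, and 226.3 and 262.0 in the female and the male control. Its highest array was 1.22-fold above its lowest, where this ratio was 1.40 to 2.23 for the other 6 probe sets past the filter. The log2 difference was -0.05 ± 0.10 (SE), and its interval of -0.29 to 0.18 excludes more than a 1.14-fold rise or a fall below 0.817 of the control level (adjusted p = 0.851). Within females it was 0.12 and within males -0.20. As for Cd14, the OVA mice of each sex lay on opposite sides of their own control, and the difference between the sexes of -0.32 ± 0.18 (SE) did not pass (adjusted p = 0.681).

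Among the surface receptors, Tlr2, which recognizes bacterial lipopeptides, was lower in every OVA mouse than in either control. Its intensities were 15.4 and 21.3 in female OVA mice, 19.1, 14.7, 21.6 and 16.2 in male OVA mice, and 22.7 and 23.4 in the female and the male control. The OVA mice spread over more than the gap between the groups. The log2 difference was -0.29 ± 0.15 (SE), with a 95% interval of -0.63 to 0.04 (adjusted p = 0.482). Tlr1, a partner of Tlr2, had 7.36 to 14.5 in OVA mice and 6.83 and 9.13 in the controls. It lay above background on 7 arrays and above the filter only in male OVA 8. Tlr5, the flagellin receptor, had 7.54 to 11.6 in OVA mice and 7.64 and 7.87 in the controls, above the 95th percentile of the olfactory receptors on all 8 arrays and below the filter on all 8. Its 2 highest values came from female OVA 12 (11.6) and male OVA 8 (10.1). Tlr1 and Tlr5 did not enter the main test.

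Tlr3, the endosomal receptor for double-stranded RNA, was also lower in every OVA mouse than in either control. Probe set 1422782_s_at had 48.1 and 43.2 in female OVA mice, 38.0, 56.9, 45.7 and 54.1 in male OVA mice, and 73.0 and 59.2 in the female and the male control. The means were 47.6 ± 6.99 (SD, n = 6) in OVA mice and 66.1 ± 9.70 (SD, n = 2) in controls. The 2 controls differed from each other by more than the gap between the groups, since the male control stood just above male OVA 5. The log2 difference of -0.43 ± 0.16 (SE), or 0.740-fold with a 95% interval of 0.576 to 0.950, did not pass (adjusted p = 0.412). It was -0.63 within females and -0.28 within males. The second probe set of Tlr3, 1422781_at, did not show it. It had 8.13 to 11.4 in OVA mice and 7.66 and 8.30 in controls, below the filter, and its correlation with the first over the 8 arrays was -0.29.

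Tlr7 and Tlr9 are endosomal receptors for RNA and DNA that B cells express. For Tlr7, probe set 1422010_at had 22.5 and 28.6 in female OVA mice, 19.9, 22.5, 32.1 and 21.1 in male OVA mice, and 20.8 and 17.0 in the female and the male control. Male OVA 8 and female OVA 12 were the highest, and the groups overlapped. The log2 difference was 0.32 ± 0.16 (SE), with a 95% interval of -0.06 to 0.69 (adjusted p = 0.497). The other 2 probe sets of Tlr7 were dim. Values of 1419848_x_at ran from 5.00 to 6.91, all at background, and those of 1449640_at from 6.84 to 12.5. The suffix x marks a probe set whose probes may also match other transcripts. Tlr9 lay at the filter, with 11.3 to 14.2 in OVA mice, a median of 12.8, and 10.1 and 12.1 in the female and the male control. Its log2 difference was 0.12 ± 0.10 (SE), with a 95% interval of -0.11 to 0.36 (adjusted p = 0.638). It was 0.06 without female control 7 and 0.19 without male control 8.

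RefSeq (GRCm38.p6) listed 7 promoters for 6 of the 10 genes, each counted from a transcript start. For 2 of them, those of Tlr9, which stood at the filter, and Myd88, whose level was steady, the 250 bases before that start lie wholly outside the gene as RefSeq places it, and these are shown. They are written 5′ to 3′ on the gene's strand, with capitals at matches, on either strand, to a kappa B motif, the interferon regulatory factor half-site AANNGAAA, the ETS core GGAAGT or the octamer ATGCAAAT.
Tlr9 (chr9:106222348-106222597, plus strand): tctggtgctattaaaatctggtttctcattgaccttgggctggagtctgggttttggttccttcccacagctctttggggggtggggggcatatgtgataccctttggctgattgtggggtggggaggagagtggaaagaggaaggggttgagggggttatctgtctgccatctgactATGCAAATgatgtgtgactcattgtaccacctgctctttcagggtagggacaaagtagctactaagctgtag
Myd88 (chr9:119340019-119340268, minus strand): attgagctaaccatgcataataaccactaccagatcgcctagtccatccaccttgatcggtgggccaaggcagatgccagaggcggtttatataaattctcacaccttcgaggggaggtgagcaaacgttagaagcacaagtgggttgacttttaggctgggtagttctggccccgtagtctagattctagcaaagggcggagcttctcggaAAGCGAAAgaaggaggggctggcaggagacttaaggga
In Tlr9 the octamer lies at positions -72 to -65 from the start, and in Myd88 the half-site AAGCGAAA lies at -38 to -31. Neither window held any other match. Of all 32851 promoters of the same length, 1.60% held the octamer, 21.3% the half-site, 19.7% the ETS core and 7.25% a kappa B match. These matches describe the letters and say nothing of binding.

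**Figure D2:**
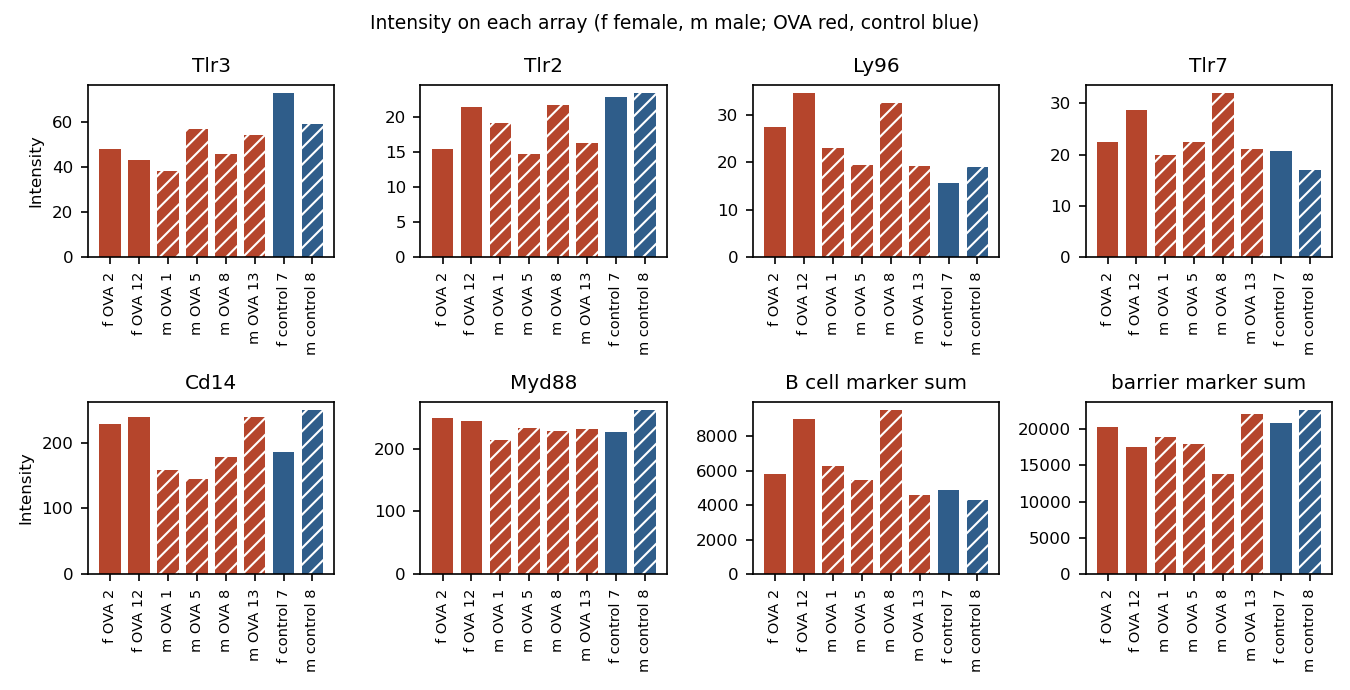
Deposited intensity on each array for 6 genes and the summed intensity of the B cell and barrier markers, OVA mice in red left of controls in blue, males hatched. Tlr3 and Tlr2 are lower on all 6 OVA arrays than on both controls and Ly96 higher, while Ly96, Tlr7 and the B cell sum are highest in female OVA 12 and male OVA 8.

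Of the 10 genes, 7 passed the filter with 1 probe set each and 3 (Tlr1, Tlr4 and Tlr5) with none. The filter used the mean of all 8 arrays, of which 6 were of OVA mice, so it leaned towards their level. In the gene lists below, measured means past this filter. Just inside it stood Tlr9, with 5 of 8 arrays above 11.9, and just outside it Tlr1, with 1 of 8. Tlr9 averaged 12.7 in OVA mice and 11.1, below the filter, in controls. It thus entered the test through the OVA arrays, and its positive difference is read with that limit. None of the 7 passed the test of OVA against control after Benjamini-Hochberg adjustment over 22518 probe sets (adjusted p of 0.412 to 0.851). Nor did any other probe set, a background of 0%. At an unadjusted p under 0.05 stood 2 of the 7, against 11.2% of all tested probe sets. These were Ly96 with a positive difference, as for 6.88% of all, and Tlr3 with a negative one, as for 4.33%. The 6 OVA mice were above both controls for 1 of the 7 genes, where 8.36% of all tested probe sets were, and below both for 2, where 5.01% were. After quantile normalization these backgrounds were 1558 probe sets above and 1603 below, where without it they were 1882 and 1128, and the members on each side were as many as before. Differences of the 7 were positive for 3 and negative for 4, with a median of -0.05, against 54.5% positive and a median of 0.02 over all probe sets tested. The genes did not move as a block.

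**Figure D3:**
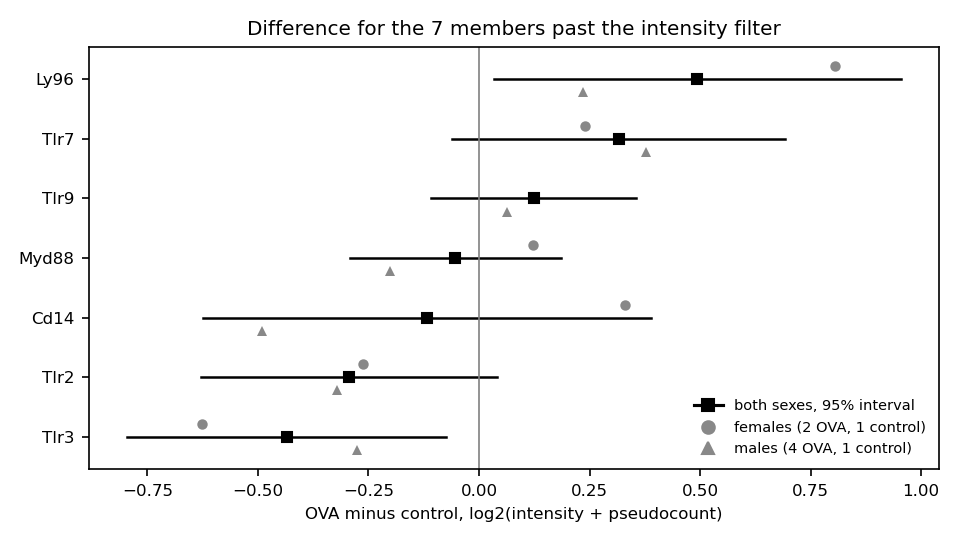
Difference of OVA minus control on the log2 scale for the 7 genes past the filter, as squares with 95% intervals from the fit of both sexes, and within females (circles) and males (triangles) with no interval. Only the intervals of Ly96 and Tlr3 leave out 0, neither passed the adjusted test, and Tlr9 has no female value because it fell below the filter there.

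Ly96 and Tlr7 were highest in the 2 mice with the highest summed B cell, T cell, macrophage and dendritic cell markers. The summed intensity of 14 B cell markers was 4574 to 9514 in OVA mice, with 8993 in female OVA 12 and 9514 in male OVA 8, and 4288 and 4875 in controls. All 14 had positive differences, with a median of 0.57. Macrophage markers were split, 6 positive and 7 negative, with a median of -0.04. Their sum in female OVA 12, 8067, was barely above the 8035 of male OVA 1. Of the dendritic cell markers 5 were positive and 3 negative, with a median of 0.14. Female OVA 12 and male OVA 8 were also highest in the summed macrophage markers (13 of 14 measured, 6650 to 8645 in OVA mice and 6551 to 7205 in controls). They were highest too in the summed dendritic cell markers (8 of 10 measured, 683.3 to 1333 in OVA mice and 745.5 to 799.6 in controls). Plasmacytoid dendritic cell markers (8 of 8 measured) did not follow this order, with 928 to 1287 in OVA mice and 1051 to 1123 in controls, female OVA 12 highest and male OVA 8, at 1019, below both controls. Barrier epithelium markers went the other way (15 of 16 measured, 13858 to 22072 in OVA mice and 20918 to 22660 in controls), with male OVA 8 lowest. Of the 8 neutrophil markers on the array 1 passed the filter, Csf3r at 14.8 to 19.0 in OVA mice and 13.8 to 16.9 in controls. S100a8 ran from 4.15 to 22.2 in OVA mice and from 7.26 to 10.4 in controls, and S100a9 from 5.13 to 28.5 in OVA mice and from 4.24 to 13.7 in controls, both with a mean below the filter. Without female OVA 12 and male OVA 8 the log2 difference was 0.32 for Ly96, 0.19 for Tlr7, -0.37 for Tlr3 and -0.42 for Tlr2. The part of cell composition in these values was not tested, and in whole tissue fewer cells of a type and less transcript per cell cannot be told apart.

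The 7 genes were compared between the sexes on 3 female and 5 male arrays. The 95% intervals of the log2 differences were wide, such as -0.28 to 0.63 for Cd14. Tlr7, which lies on the X chromosome, averaged 24.0 ± 4.14 (SD, n = 3) in females and 22.5 ± 5.73 (SD, n = 5) in males, a log2 difference of 0.13 ± 0.15 (SE) with a 95% interval of -0.21 to 0.47. The differences of the 7 ran from -0.09 for Tlr9 to 0.20 for Ly96, and none passed (adjusted p of 0.919 to 0.993), against 0.0533% of all tested probe sets. Without either control the difference was 0.40 for Cd14, against 0.17 with both, and 0.35 for Ly96, and without female OVA 12 it was 0.06 for Cd14 and 0.04 for Ly96. None had an unadjusted p under 0.05, against 5.41% of all probe sets. When the OVA effect in males was set against that in females, none passed either (adjusted p of 0.626 to 0.978, against 0% of all probe sets), and none had an unadjusted p under 0.05, against 8.2%. Each sex had 1 control, and the 95% interval of this difference was -1.46 to 0.32 for Ly96 and -0.38 to 1.08 for Tlr3.

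Other genes of the pathway gave no call after adjustment, and those named here had the smallest p of their lists. Of the other receptors, 3 of 5 were measured. Tlr6, the other partner of Tlr2, had 18.2 to 26.3 in OVA mice and 17.0 and 18.5 in controls, a log2 difference of 0.29 ± 0.13 (SE). Tlr12 was at -0.21 ± 0.13 (SE) and Tlr13, a receptor for bacterial ribosomal RNA in mice, at 0.12 ± 0.17 (SE). All 12 genes that fold, cut or assist these receptors were measured, 8 with positive differences and a median of 0.17. Of the 12, 4 had all OVA mice above both controls and 0 had all below, where 7.99% of all genes were above and 4.65% below. Besides the 3 genes of smallest p, named next, this count holds Ly86, picked out after its values were seen, with a log2 difference of 0.48. Cnpy3, a chaperone of Toll-like receptors, had 52.3 to 71.1 in OVA mice and 48.4 and 50.1 in controls. Hsp90b1, the endoplasmic reticulum chaperone with which it works, had 924.8 to 1089 in OVA mice and 801.1 and 891.3 in controls, and Cnpy4 had a log2 difference of 0.26 ± 0.10 (SE). These 3 stood above both controls in all 6 OVA mice, with adjusted p of 0.409 for Cnpy3, 0.428 for Hsp90b1 and 0.425 for Cnpy4.

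Adaptors and signalling proteins were measured for 22 of 27 genes, 13 with positive and 9 with negative differences and a median of 0.08. The 3 with the smallest p were all negative. Ticam1, the adaptor that Tlr3 uses, had 74.3 to 99.2 in OVA mice and 100.8 and 117.4 in controls. Irf7, a transcription factor of type I interferon genes, had 130.9 to 173.5 in OVA mice and 187.2 and 237.6 in controls, and the kinase Ikbke was at -0.35 ± 0.13 (SE). Of the 22, Ticam1 and Irf7 had all OVA mice below both controls, where 4.65% of all genes did, and 3 had all above, where 7.99% did. The 3 above, picked out after their values were seen, were Tab2 (0.17), Pik3ap1 (0.51) and Map3k7 (0.12). Map3k7 had the same deposited value, 93.8, on every OVA array except female OVA 12. That value lay barely above the 93.1 of the male control. Ticam1 and Irf7 had log2 differences of -0.32 ± 0.13 (SE) and -0.42 ± 0.15 (SE) and adjusted p of 0.425 and 0.412. Among other sensors of microbes and nucleic acids, 13 of 19 were measured, 10 with negative differences and a median of -0.12. Zbp1, a sensor of nucleic acids, was at -0.59 ± 0.16 (SE) and Rigi, a cytosolic RNA sensor, at -0.29 ± 0.10 (SE), and all OVA mice lay below both controls for 3 of the 13 (with Pycard, picked out after its values were seen, at -0.31) and above for 0, where 4.65% and 7.99% of all genes did. Clec4e, a lectin receptor of myeloid cells, was at 0.79 ± 0.27 (SE), but the groups overlapped. It had 21.3 to 44.9 in OVA mice and 21.5 and 10.6 in the female and the male control, the latter below the filter.

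Negative regulators were measured for 13 of 14 genes, with a median of 0.01, 7 of them positive. Tnfaip3, the ubiquitin-editing inhibitor A20, had 194.4 to 283.8 in OVA mice and 172.4 and 179.0 in controls, Sarm1 was at 0.20 ± 0.11 (SE) and Sigirr at -0.16 ± 0.09 (SE). Sarm1 lay at the filter, with 12.1 to 15.0 in OVA mice and 11.9 and 10.4 in the female and the male control. Like Tlr9, it had a control mean (11.2) below the filter. Target cytokines, chemokines and enzymes were measured for 13 of 19 genes, with a median of 0.01, 7 of them positive. The chemokine Ccl20 was at 0.84 ± 0.23 (SE), Il12a, a subunit of interleukin 12, at 0.72 ± 0.22 (SE) and Ptgs2, an enzyme of prostaglandin synthesis, at -0.37 ± 0.13 (SE). Il6, Il12b, Cxcl2, Ccl3, Nos2 and Ifnb1 did not pass the filter, and of these Il6 had at most 3.73 and Il12b at most 5.45 on any array. Over all 11988 genes the median difference was 0.02, 53.7% were positive, and none passed.

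**Figure D4:**
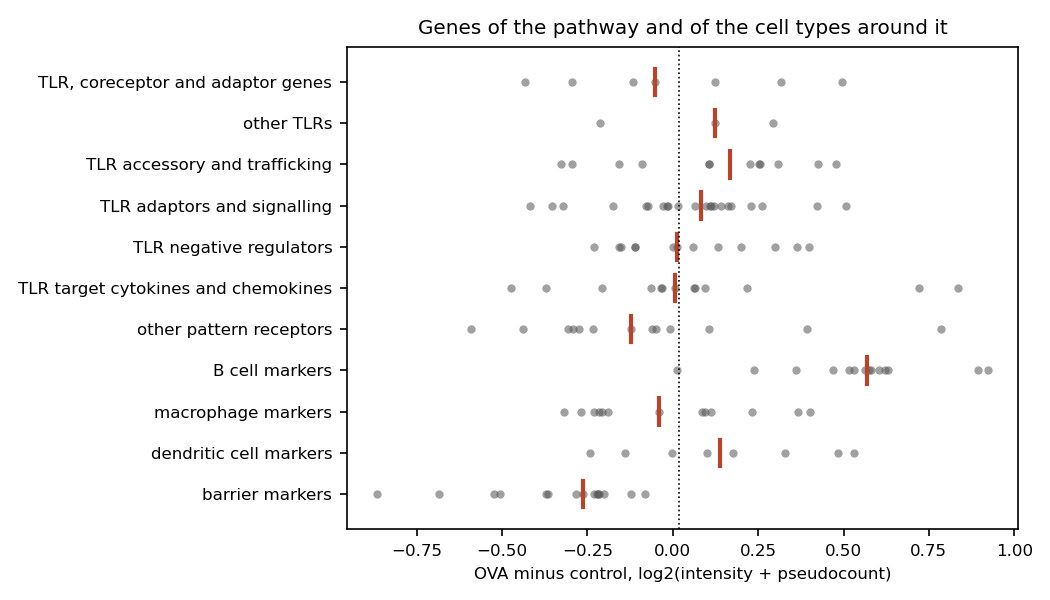
Difference of OVA minus control on the log2 scale for each gene past the filter (grey points) in lists of the pathway and of cell types, with the median of each list in red and that of all genes as a dotted line. The 7 Toll-like receptor, coreceptor and adaptor genes lie on either side of 0, while B cell markers have a median of 0.57 and barrier markers of -0.26.

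For each member past the filter, the genes most like it in pattern over the 8 arrays were named. They were taken as the 3 highest Pearson correlations among the brightest probe sets of 11988 genes. For Ly96 these were Zmat2, Pmepa1 and Fcamr, each at 0.99, and for Tlr7 they were Prmt6 (0.99), Atp1b3 (0.98) and Acot9 (0.97). Tlr3 was nearest to Gpr153 (0.97), Bivm (0.96) and Trim36 (0.95), and Tlr2 to Grip2 (0.97), Lars (0.95) and Pde2a (0.92). For Cd14 they were Rbm33 (0.98), Prkab1 (0.97) and Fzd6 (0.96), for Myd88 Sox9 (0.96), Spsb3 (0.95) and Golga5 (0.91), and for Tlr9 Dok7 (0.96), Sh3gl1 (0.94) and Gm6211 (0.94). These correlations describe 8 libraries, share their scaling and carry no test. No member was among the 3 nearest of another.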

How the data were processed

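The submitters deposited 1 table of probe set intensities on a linear scale, which the authors had normalized. MAS5 is named in the submitters' processing notes, with no version or settings given in the sources used here, and in 51.5% of probe sets at least 2 arrays had identical values. The 10 genes, the lists and the tests were chosen with earlier results of these data known. Of 45101 probe sets, 34958 had 1 gene symbol, 932 several and 9211 none. Intensities were taken to log2(intensity + 4.88), the pseudocount being the 25th percentile of all values, without further scaling, so fold changes of dim genes are understated. Without the 64 AFFX controls, probe sets with a mean log2 value over the median of those means (11.9 as intensity) were tested, two-sided, over the 8 arrays by limma 3.58.1 (lmFit, eBayes; R 4.3.3) with treatment and sex as terms, 5 residual degrees of freedom, Benjamini-Hochberg adjustment over 22518 probe sets and a threshold of 0.05. The difference between the sexes came from 4 group means. For a listed gene the brightest of its tested probe sets was used. Named were all 16 member probe sets, the 3 genes of smallest p in each pathway list, and the 3 genes most like each member past the filter. The fits were tested on simulated data. Alternatives were other pseudocounts, quantile normalization, median centring, other filters, variance with trend and robust, array weights, no covariate, each sex alone and leaving out each array. Leaving out 2 arrays together was added after seeing the data. No scan date or array batch was given. Python 3.11.15, pandas 2.3.3 and matplotlib 3.10.9 made the tables and figures.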

Additional observations from a re-analysis of the deposited data

Results flagged for a closer look

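Cd14 and Myd88 stood out because OVA mice of the sexes lay on opposite sides of their own control. The OVA effect in males minus that in females was -0.82 for Cd14 and -0.32 for Myd88 on the log2 scale. The interaction was tested with limma and neither passed (adjusted p = 0.626 and 0.681), and each sex had 1 control. A sample far from the others was found in 2 of 32 group comparisons of the 16 probe sets, where about 1 in 20 arises by chance. These were Tlr5 in male OVA 8, at 10.1 against 8.41 to 8.66 in the other male OVA mice, and Tlr7 probe set 1449640_at in male OVA 13, at 6.84 against 8.42 to 8.66. Both lie below the filter.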

How the results depend on the processing

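None of the genes passed the test of OVA against control, of female against male or of the difference between the sexes under any alternative run. Differences of OVA against control kept their sign in 130 of 134 alternative values. The exceptions were Cd14 (0.33) and Myd88 (0.12), within females and without male control 8. With 1 control per sex these settings give the same difference, as do within males and without female control 7, so they are not separate checks. On leaving out 1 array the range was -0.49 to 0.33 for Cd14 and -0.20 to 0.12 for Myd88. The count of members with all OVA arrays above the controls was 0 with the filter at the 75th percentile, 4 within females, 2 within males, and 1 to 2 on leaving out 1 array. Leaving out female control 7, male control 8 or male OVA 1 gave 2. The count below was 0 with that filter, 4 within males, and 2 to 4 on leaving out 1 array (4 without female control 7). Within females 9746 of the 22518 probe sets tested lay above the control, and within males 5397 lay above and 5441 below. Without female control 7 these were 4092 above and 4301 below, and without male control 8 5066 above. The stricter filter left fewer members. Of female against male, signs changed for Tlr2 (-0.11 to 0.12 on leaving out 1 array), Myd88 (-0.016 to 0.12) and Tlr3 (-0.071 to 0.11). Without female OVA 12 and male OVA 8 together, Tlr2 was at -0.063 and Myd88 at -0.0022. The OVA effect in males minus that in females changed sign for Tlr2 with quantile normalization (0.037). The cause was not tested. Probe sets past the threshold between the sexes numbered 12, 4 with the filter at the 75th percentile, and 9 to 14 on leaving out 1 array. With the filter intensity as the background mark, 7 probe sets were at background and 6 were measured on every array, against 9 in the main setting. With the 99th percentile of the olfactory receptors, 5 lay on either side of it and 7 were measured on every array. No paired analysis was possible because the labels name no pairs of mice. Signals near background limit Tlr1, Tlr4, Tlr5 and Tlr9, and 2 controls limit every comparison. The lowest values of Tlr2 (14.7) and Ly96 (15.6) lay near the 15.3 that a Uty probe set reached on a female array.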
